A study of Mus musculus with 2 samples.

Results

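The 27 genes described here encode enzymes of the mevalonate and sterol synthesis pathway, the proteins that control the transcription factor SREBP2, and the sterol transfer protein STARD4. They were taken by gene symbol from a table of 34745 genes, and all 27 were found in it. Both samples were primary bone marrow-derived macrophages from C57BL/6 mice that received an antisense oligonucleotide (ASO) by transfection, and lipopolysaccharide (LPS), the bacterial ligand of TLR4. The Control-ASO group (control ASO and LPS) and the AclyE14-ASO group (an ASO named for Acly, and LPS) held 1 library each. The sources used here give neither the number of animals behind each culture nor the ASO sequences, the LPS dose or its time, and an untreated culture was not analysed here.

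Sterol synthesis starts from cytosolic acetyl-CoA, the product of ATP-citrate lyase, which Acly encodes. Acetyl-CoA units are joined into mevalonate, mevalonate is phosphorylated and decarboxylated to isoprenoid units, and these are condensed through farnesyl diphosphate to squalene, lanosterol and cholesterol. SREBP2, the product of Srebf2, is held in the endoplasmic reticulum with SCAP by the INSIG proteins while sterols are plentiful. When sterols run low, SCAP escorts it to the Golgi, where the proteases encoded by Mbtps1 and Mbtps2 release its active part, which switches on most genes of the pathway. Macrophages activated with LPS also make hydroxylated cholesterol through Ch25h, which restrains SREBP2.

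The table gave raw counts and FPKM, that is, counts scaled to gene length and library total. The Control-ASO library held 14215397 counts and the AclyE14-ASO library 12751076. With 1 library in each group no difference has a replicate check, no p-value can be given, and differences between cultures are included in every value below. In such bulk samples, fewer cells of a type and less RNA per cell cannot be told apart. Acly itself had 1549 counts (13.3 FPKM) in the Control-ASO library and 768 counts (7.35 FPKM) in the AclyE14-ASO library, so the library labelled with the ASO named for Acly was the lower one. Macrophage markers were abundant in both libraries, with 15 of 16 reaching a mean of 1 FPKM and summed levels of 18274 and 23270 FPKM, and Cx3cr1 at 0. They differed in both directions: Cd14 (1020 and 2270 FPKM), Fcgr1, Laptm5 and Msr1 were higher by 1.5-fold, and Cd68 (1059 and 590 FPKM) and Cebpa (6.76 and 2.46 FPKM) were lower. Fibroblast and stromal markers differed between the libraries: 11 of the 12 measured of 16 listed exceeded 1.5-fold towards the AclyE14-ASO library, and the summed level was 616 and 1000 FPKM, of which Pdpn made up 564 and 770 FPKM. Of these 11, Pdgfra, Thy1, Col6a1 and Loxl1 were below 1 FPKM in the Control-ASO library and were measured only through the other one. Among the 8 that reached 1 FPKM in the Control-ASO library, 7 were higher. Over all 8658 genes whose mean reached 1 FPKM, 7.03% were higher and 8.48% lower by 1.5-fold. The counts of macrophage and stromal markers should be read beside these shares. Of the other lists, some members were expressed: Kdr (11.1 and 5.49 FPKM) and Cdh5 (1.09 and 1.97 FPKM) among endothelial markers, S100a8 (19.7 and 41.4 FPKM) and Csf3r (4.17 and 6.58 FPKM) among neutrophil markers, Lck (3.23 and 5.26 FPKM) among lymphocyte markers, and Lpl (58.1 and 42.6 FPKM) among fat cell markers. The part of these markers in the values below was not tested. By contrast, Tek and Emcn among 6 endothelial markers, Adipoq, Plin1, Cidec and Lep among 5 fat cell markers, S100a9, Ly6g, Elane and Camp among 8 neutrophil markers, and Cd3e and Cd3d among 8 lymphocyte markers were at 0 in both libraries.

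The genes of the early pathway were mostly lower in the AclyE14-ASO library, while those that turn lanosterol into cholesterol were not lower as a group. Summed over the 10 genes from Acat2 to Lss, leaving out the side branch gene Ggps1, the level was 194.6 CPM (counts scaled to the library total) in the Control-ASO library and 135.8 CPM in the AclyE14-ASO library, a ratio of 0.698 (exact 95% interval for counting error 0.657 to 0.741). Summed over the 9 genes from Cyp51 to Dhcr7 it was 133.1 and 136.3 CPM, a ratio of 1.02 (0.959 to 1.09). The counting intervals of both sums do not overlap. The median gene with at least 50 counts over both libraries had a ratio of 0.904, and relative to it the sums stood at 0.772 and 1.13. The division at lanosterol follows the chemistry of the pathway but was drawn after the values were seen.

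By the rule used for calls, 4 of 21 measured genes were lower by 1.5-fold or more on the FPKM + 1 scale and 0 were higher. These were Pmvk, Mvd, Idi1 and Sqle, or 19.0% of the measured genes, against 8.48% lower and 7.03% higher of all 8658 genes whose mean reached 1 FPKM. The other 6 genes (Lss, Tm7sf2, Lbr, Hsd17b7, Dhcr7 and Stard4) had means below 1 FPKM. The median log2 ratio of the 21 was -0.14, beside -0.13 over all genes tested, so the set as a whole was placed like the typical gene. When each log2 ratio was centred on the median gene, a shift of 0.13, 0 of the 4 calls were left, and with the trimmed mean of M values (TMM), an edgeR scaling, 2 were left, Pmvk and Sqle.

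**Figure D1:**
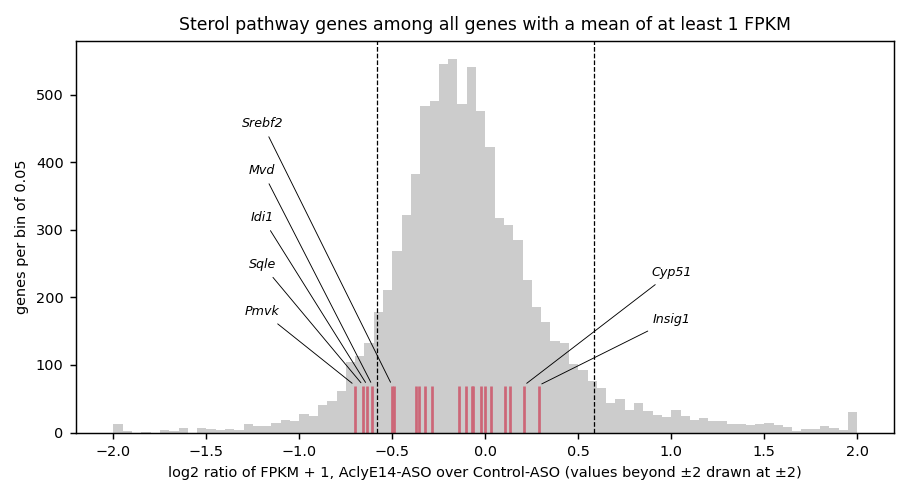
Log2 ratios (AclyE14-ASO against Control-ASO, on FPKM + 1) of all 8658 genes whose mean reached 1 FPKM (grey bars), with the 21 measured sterol pathway genes as red ticks and the 1.5-fold limits as dashed lines. Pmvk, Sqle, Idi1 and Mvd lie beyond the lower limit and 0 genes of the set lie beyond the upper one.

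Counts without a pseudocount cover all 27 genes. By them 6 genes were lower by 1.5-fold or more and 1 was higher, shares of 22.2% and 3.70%, against 15.0% and 11.6% of the 10303 genes with at least 50 counts. The ratio itself was below 1 for 19 of the 27 (70.4%), against 63.0% of those genes. The counting interval lay below 1 for 12 of the 27 (44.4%, background 40.6%), which is near the share among all genes, and above 1 for 4 (14.8%, background 22.3%). Within the set the lower genes were unevenly placed across the division at lanosterol, which was drawn after the values were seen. Of the 10 genes up to lanosterol, 5 were lower by 1.5-fold and 8 had an interval below 1, while of the 9 later genes 0 were lower by 1.5-fold and 2 had an interval below 1.

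**Figure D2:**
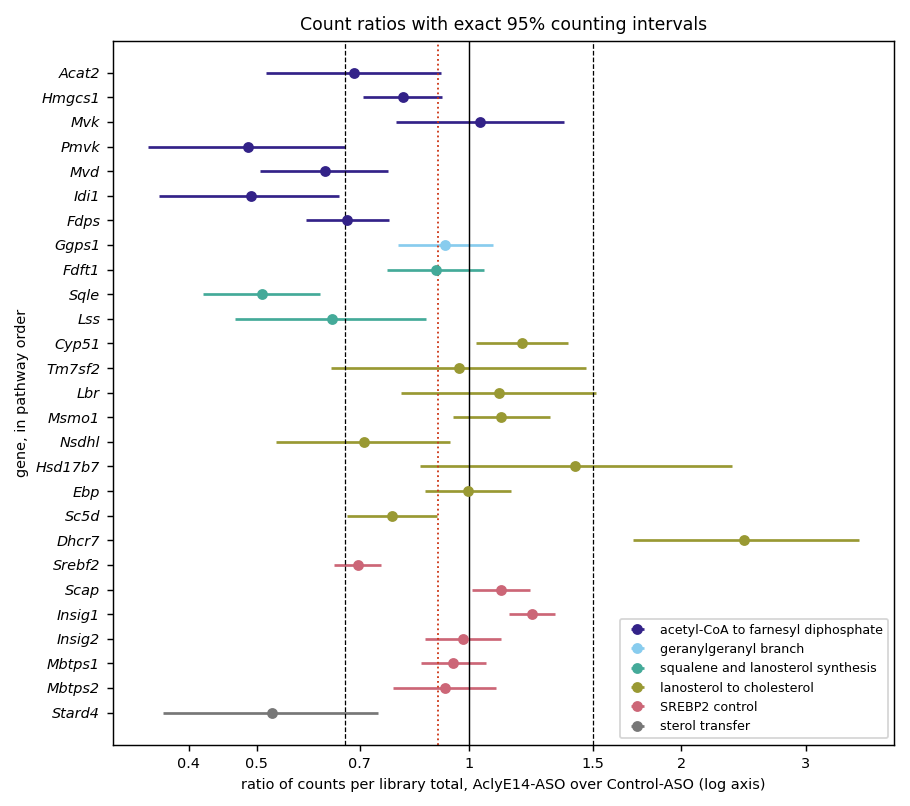
Ratio of counts per library total, AclyE14-ASO over Control-ASO (log axis), for the 27 genes in pathway order, with exact 95% intervals for counting error as bars and colours for the stage. Dashed lines mark 1.5-fold in each direction and the red dotted line the median gene at 0.904. Pmvk, Idi1 and Sqle lie beyond the lower limit with their whole interval, and Dhcr7 beyond the upper one.

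The sequences before the annotated starts were compared, because SREBP2 is known to act at promoters together with the factor NF-Y. RefSeq promoter windows (GRCm38.p6) were found for 23 of the 27 genes. Fdps, Fdft1, Sqle and Stard4 had no entry. In the 250 bases before the start, the NF-Y motif CCAAT, on either strand, was present for 19 of 23 genes (82.6%), against 37.5% of all 27025 genes in the table and 39.6% of the 6707 of them measured here. Acat2, Scap, Mbtps1 and Mbtps2 had no match, the last 3 of which encode the machinery that moves and cuts SREBP2. The median GC content of the windows was 62.4%, against 52.4% over all windows. The SREBP motif TCACNCCAC was present in 1 of the 23 (4.35%), that of Hmgcs1, against 1.22% of all genes. With 1 mismatch allowed it was present in 10 of 23 (43.5%), against 23.0% of all genes, and the E-box TCACGTGA was in 0 of 23 and 0.907% of all genes. A match is only a run of letters, and binding was not measured.

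The windows of 6 genes are printed 5′ to 3′ to set the 3 lower early enzymes with an entry (Pmvk, Mvd, Idi1) beside Hmgcs1, which holds the SREBP motif, and beside Srebf2 and Insig1, which differed in opposite directions. They were chosen after the values were seen. Capitals mark CCAAT or its reverse complement ATTGG, and the SREBP motif with up to 1 mismatch on either strand. Each window holds the 250 bases that end just before the RefSeq start. The GENCODE gene start is the same for Pmvk and Mvd, but lies 105, 88 and 49 bases inside the windows of Idi1, Srebf2 and Insig1, and beyond the end of the window of Hmgcs1. The NF-Y matches of Idi1 and the 1-mismatch SREBP match of Insig1 therefore lie within the gene as GENCODE annotates it.
Hmgcs1, chr13:119690101-119690350, plus strand: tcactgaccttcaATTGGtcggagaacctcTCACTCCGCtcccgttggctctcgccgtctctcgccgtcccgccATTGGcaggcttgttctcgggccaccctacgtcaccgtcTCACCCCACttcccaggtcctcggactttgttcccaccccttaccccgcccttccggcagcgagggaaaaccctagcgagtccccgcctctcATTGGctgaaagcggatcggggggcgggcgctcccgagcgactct
Pmvk, chr3:89454291-89454540, plus strand: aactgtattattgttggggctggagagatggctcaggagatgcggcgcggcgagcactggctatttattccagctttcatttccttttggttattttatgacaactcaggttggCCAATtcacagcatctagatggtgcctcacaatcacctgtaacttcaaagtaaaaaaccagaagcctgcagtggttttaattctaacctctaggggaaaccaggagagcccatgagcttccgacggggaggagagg
Mvd, chr8:122443423-122443672, minus strand: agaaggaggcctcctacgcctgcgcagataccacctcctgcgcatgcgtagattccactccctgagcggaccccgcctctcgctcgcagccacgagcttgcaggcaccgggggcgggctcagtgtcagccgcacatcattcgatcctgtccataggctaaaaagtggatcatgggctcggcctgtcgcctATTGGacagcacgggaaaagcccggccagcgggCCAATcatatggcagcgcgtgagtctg
Idi1, chr13:8885356-8885605, plus strand: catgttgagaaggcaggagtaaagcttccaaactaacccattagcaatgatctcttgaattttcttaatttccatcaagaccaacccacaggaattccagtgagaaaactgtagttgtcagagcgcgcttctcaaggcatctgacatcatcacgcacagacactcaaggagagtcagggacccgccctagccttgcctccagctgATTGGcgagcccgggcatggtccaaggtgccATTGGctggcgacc
Srebf2, chr15:82147019-82147268, plus strand: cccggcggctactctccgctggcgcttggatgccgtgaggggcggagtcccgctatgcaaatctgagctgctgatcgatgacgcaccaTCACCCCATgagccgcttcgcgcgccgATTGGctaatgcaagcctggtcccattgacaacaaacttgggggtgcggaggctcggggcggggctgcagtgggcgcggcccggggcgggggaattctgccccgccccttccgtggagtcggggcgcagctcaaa
Insig1, chr5:28071162-28071411, plus strand: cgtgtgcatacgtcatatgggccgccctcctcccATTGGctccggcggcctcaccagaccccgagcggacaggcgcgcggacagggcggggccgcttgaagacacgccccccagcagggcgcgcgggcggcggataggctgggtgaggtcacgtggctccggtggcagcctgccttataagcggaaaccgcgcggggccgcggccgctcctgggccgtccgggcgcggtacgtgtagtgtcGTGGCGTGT

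Counted from the RefSeq start, the SREBP motif of Hmgcs1 lay 137 to 129 bases before it, between NF-Y matches that begin 176 and 45 bases before it. In Srebf2 a match with 1 mismatch lay 162 to 154 bases before the start and the NF-Y match began 135 bases before it. Pmvk had 1 NF-Y match, Mvd and Idi1 had 2 each, and these 3 windows had 0 SREBP matches even with 1 mismatch. Cyp51 and Msmo1, which had ratios above 1, held NF-Y matches as well, and SREBP matches with 1 mismatch. Such 1-mismatch matches were also found in Hsd17b7, Dhcr7 and Insig1, with ratios above 1. Acat2, Hmgcs1, Nsdhl, Srebf2 and Insig2, with ratios below 1, held them too, while Mvk, Lbr and Scap, with ratios above 1, did not.

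**Figure D3:**
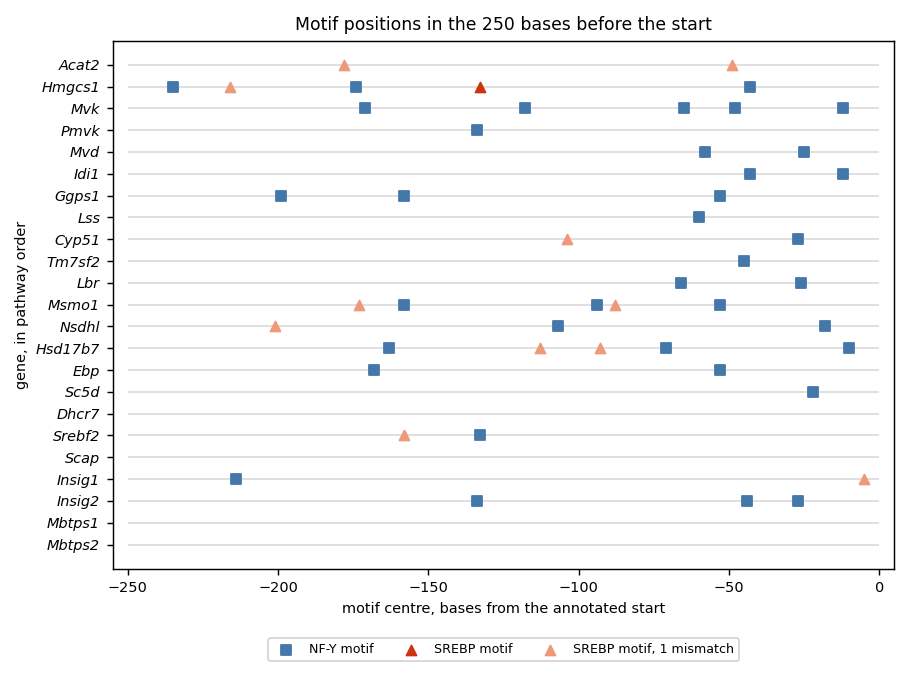
Position of motif matches in the first listed window of each of the 23 genes, as bases from the RefSeq start (0), with squares for the NF-Y motif and triangles for the SREBP motif, exact (dark) or with 1 mismatch (light). Matches of Dhcr7 (both motifs) and a 1-mismatch match of Insig2 lay in other windows and are not drawn. Hmgcs1 alone carries an exact SREBP match.

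The first 2 members of the pathway join acetyl-CoA units. Acat2, the cytosolic acetoacetyl-CoA thiolase, had 133 counts (2.67 FPKM) in the Control-ASO library and 82 counts (1.84 FPKM) in the AclyE14-ASO library, a count ratio of 0.687 (0.515 to 0.912). Hmgcs1, the cytosolic HMG-CoA synthase, was more abundant per length, with 12.3 and 9.92 FPKM from 566 and 409 counts, and a ratio of 0.806 (0.708 to 0.916). Both were lower by less than 1.5-fold.

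The 3 enzymes that carry mevalonate to isopentenyl diphosphate did not share one direction. Mvk, mevalonate kinase, had 113 and 105 counts (1.69 and 1.75 FPKM), a ratio of 1.04 with an interval that includes 1 (0.787 to 1.36). Pmvk, phosphomevalonate kinase, which acts on its product, had 133 and 58 counts (2.99 and 1.45 FPKM), a ratio of 0.486 (0.351 to 0.667). The intervals of these successive kinases do not overlap. Mvd, the decarboxylase that follows, had 261 and 146 counts (10.4 and 6.50 FPKM), a ratio of 0.624 (0.506 to 0.767). It is the only one of the 4 called genes with a mean above 5 FPKM, and its interval reaches back within the 1.5-fold limit. Pmvk lies on chromosome 3 (89454541 to 89469013, plus strand) and Mvd on chromosome 8 (122433601 to 122443422, minus strand) in GRCm38.

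Idi1, the isomerase that makes the reactive allylic isoprenoid, had 157 counts in the Control-ASO library and 69 in the AclyE14-ASO library (2.30 and 1.13 FPKM). The ratio of 0.490 (0.364 to 0.654) lay beyond 1.5-fold over its whole interval, and only 3.53% of genes with at least 50 counts had a lower ratio. Fdps, farnesyl diphosphate synthase, had 576 and 347 counts (7.12 and 4.78 FPKM), a ratio of 0.672 (0.586 to 0.769), just short of the limit. Fdps shares 1124 exon bases with Gm43738 on the same strand, and adding its counts gave a ratio of 0.658 (0.576 to 0.751), just past it. Idi1 lies on chromosome 13 (8885501 to 8892451, plus strand).

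At farnesyl diphosphate the pathway divides. Ggps1 makes geranylgeranyl diphosphate, which anchors small GTPases to membranes, and had 371 and 308 counts (11.0 and 10.2 FPKM), a ratio of 0.926 (0.793 to 1.08). Fdft1, squalene synthase, commits the pathway to sterols and had 357 and 287 counts (8.78 and 7.87 FPKM), a ratio of 0.896 (0.765 to 1.05). Both were placed close to the median gene. Fdft1 shares 774 exon bases with Ctsb on the other strand, which had 171460 and 146957 counts, so its value is uncertain if counting did not use the strand.

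Sqle, squalene epoxidase, the first oxygen-requiring step and a rate-limiting enzyme of sterol synthesis, had 353 counts (2.90 FPKM) in the Control-ASO library and 161 counts (1.48 FPKM) in the AclyE14-ASO library. The ratio was 0.508 (0.419 to 0.614), the best counted of the 3 genes whose whole interval lay beyond the lower limit. Lss, which closes the ring to give lanosterol, had 117 and 67 counts, a ratio of 0.638 (0.466 to 0.869). It failed the expression limit at 0.446 and 0.285 FPKM, although its counts were close to those of Pmvk. The deposited FPKM of Lss implies a length of 18.5 kb, against 10.8 kb for the union of its exons in GENCODE M21, and a gene given a greater length receives a lower FPKM from the same counts. Sqle lies on chromosome 15 (59315077 to 59331192, plus strand).

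**Figure D4:**
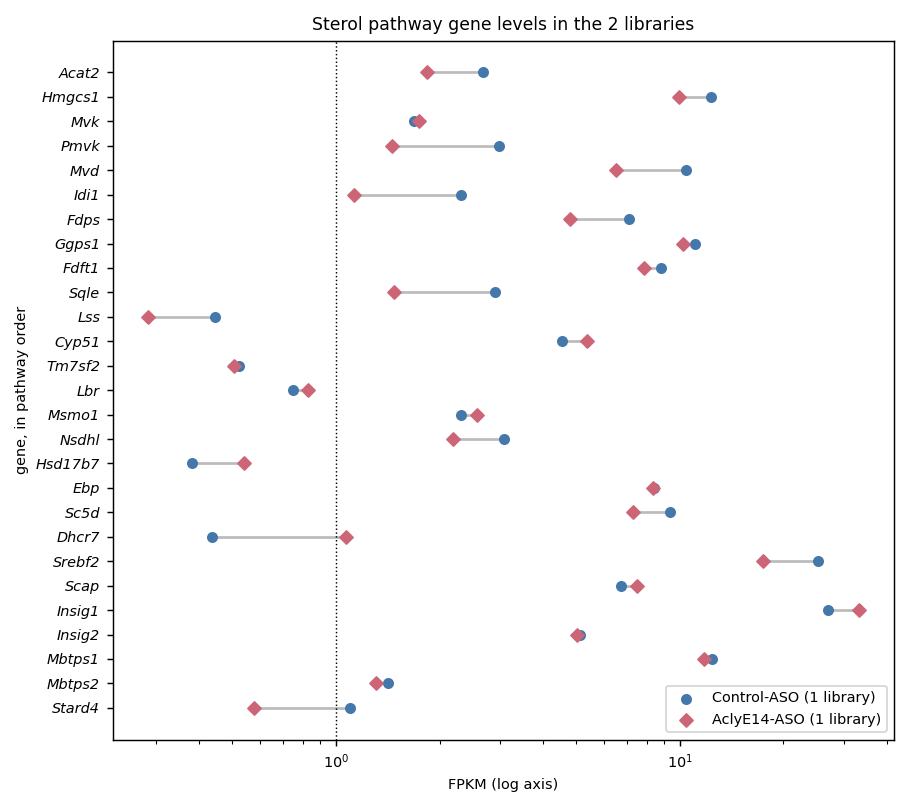
FPKM (log axis) of the 27 genes in pathway order in the Control-ASO library (circles) and the AclyE14-ASO library (diamonds), with a dotted line at 1 FPKM. The diamonds lie to the left of the circles for 6 of 7 genes from Acat2 to Fdps, and Insig1 and Srebf2 are the most abundant genes in both libraries.

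Beyond lanosterol the balance differed. Cyp51, the cytochrome that removes the first methyl group of lanosterol, had 348 and 371 counts (4.53 and 5.38 FPKM), a ratio of 1.19 (1.02 to 1.38). Cyp51 shares 166 exon bases with Akap9 on the other strand, which matters if counting did not use the strand. Their summed counts had a ratio of 1.07 with an interval that includes 1 (0.942 to 1.22). Tm7sf2 and Lbr encode reductases that carry out the same next step, Lbr being also the lamin B receptor of the inner nuclear membrane. Tm7sf2 had 53 and 46 counts, a ratio of 0.968 (0.637 to 1.46), and Lbr 83 and 82 counts, a ratio of 1.10 (0.802 to 1.51). Neither differed beyond counting error. Tm7sf2 shares 532 exon bases with Vps51 on the same strand, and the summed counts had a ratio of 0.945 (0.834 to 1.07).

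The demethylation complex of Msmo1, Nsdhl and Hsd17b7 takes off the remaining methyl groups in turn. Msmo1 had 324 and 323 counts (2.31 and 2.57 FPKM), a ratio of 1.11 (0.950 to 1.301). Nsdhl had 132 and 84 counts (3.08 and 2.19 FPKM), a ratio of 0.709 (0.533 to 0.940). Hsd17b7, the least counted of the 27 genes, had 30 and 38 counts, a ratio of 1.41 with an interval from 0.852 to 2.36. The members of this complex thus had ratios on both sides of 1, and the interval of Nsdhl lay below that of Msmo1.

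The last steps isomerise and reduce the sterol ring. Ebp, the sterol isomerase, was nearly equal, with 425 and 380 counts (8.38 and 8.35 FPKM) and a ratio of 0.997 (0.866 to 1.15). Sc5d, the desaturase, had 452 and 315 counts (9.37 and 7.28 FPKM), a ratio of 0.777 (0.671 to 0.899). Dhcr7, which makes cholesterol from its immediate precursor 7-dehydrocholesterol, was the only gene of the 27 higher by 1.5-fold on counts, with 45 counts (0.435 FPKM) against 99 (1.07 FPKM). Its ratio was 2.45 (1.71 to 3.57), above that of 95.5% of genes with at least 50 counts. It reached a mean of only 0.750 FPKM, so it has no call on the FPKM + 1 scale, where its log2 ratio was 0.53.

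Among the regulators, Srebf2 and Insig1 were the most abundant members per length and stood on opposite sides. Srebf2 had 1784 counts (25.2 FPKM) in the Control-ASO library and 1112 counts (17.5 FPKM) in the AclyE14-ASO library, a ratio of 0.695 (0.644 to 0.749). Insig1, which retains SCAP and SREBP2 in the endoplasmic reticulum and is itself a target of SREBP2, had 1325 and 1459 counts (26.99 and 33.1 FPKM), a ratio of 1.23 (1.14 to 1.32). Neither passed 1.5-fold. Their counting intervals are narrow and do not overlap, and 18.1% of genes with at least 50 counts had a lower ratio than Srebf2 and 79.9% a lower ratio than Insig1. Srebf2 lies on chromosome 15 (82147181 to 82205379, plus strand) and Insig1 on chromosome 5 (28071363 to 28078662, plus strand).

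The other parts of the control machinery were close to the median gene or slightly above it. Insig2, the second retention protein, had 551 and 484 counts (5.12 and 5.02 FPKM), a ratio of 0.979 (0.865 to 1.11), and its interval lay below that of Insig1. Scap had 854 and 850 counts (6.74 and 7.48 FPKM), a ratio of 1.11 (1.01 to 1.22). Mbtps1 and Mbtps2, which encode the Golgi proteases, had ratios of 0.949 (0.854 to 1.06) and 0.923 (0.779 to 1.09) from 768 and 654 and from 308 and 255 counts. Stard4, a cytosolic sterol carrier and a known SREBP2 target, had 106 and 50 counts (1.10 and 0.578 FPKM), a ratio of 0.526 (0.368 to 0.743). It lay with Pmvk, Idi1 and Sqle among the lowest ratios of the set, but below the expression limit.

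Genes around the pathway were read from lists chosen with earlier results of the series known, and calls are on the FPKM + 1 scale. Of all 8658 genes tested, 8.48% were lower and 7.03% higher by 1.5-fold. The lists are short, so their counts should be read beside these shares. Of 4 measured genes of acetyl-CoA supply, 1 was lower, Acly. Of 13 genes that use isoprenoids for ubiquinone, dolichol and protein prenylation, 0 passed 1.5-fold, with a median log2 ratio of -0.19. Nus1, a dolichol synthesis subunit, was at 27.98 and 21.7 FPKM. Dhdds (1.01 and 1.79 FPKM) was higher by 1.5-fold only by counts, with a ratio of 1.78 (1.499 to 2.11) from 220 and 351 counts. Of 11 genes for INSIG partners and degradation in the endoplasmic reticulum, 2 were lower. They were Ufd1 (5.05 and 2.81 FPKM) and Tmub1 (3.44 and 1.64 FPKM). Of 8 measured accessory genes of the sterol enzymes 0 passed the limit, and Cyb5r3, the most abundant, was at 45.1 and 44.7 FPKM. By counts Pgrmc1 (19.2 and 28.9 FPKM) was just past it, with a ratio of 1.51 (1.34 to 1.69).

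The SREBP1 arm, which serves fatty acid synthesis, held genes that were higher and genes that were not. Of the 4 listed genes with at least 1 FPKM in the Control-ASO library, 2 were higher by 1.5-fold and 0 lower, with a median log2 ratio of 0.41. Over all genes tested 7.03% were higher and 8.48% lower. Elovl5, a fatty acid elongase, had 74 and 333 counts (1.34 and 6.73 FPKM), and Fads1, a desaturase, 172 and 340 counts (3.50 and 7.72 FPKM). A further 3 genes, Fasn, Scd2 and Fads2, were below 1 FPKM in the Control-ASO library and passed the limit only through the AclyE14-ASO library, so they had to be higher there. They were at 0.788 and 1.74, 0.593 and 1.87, and 0.420 and 1.87 FPKM. Srebf1 was at 4.49 and 4.04 FPKM and Mid1ip1, the most abundant of the list in the Control-ASO library, at 7.34 and 4.97 FPKM. The stromal markers described above were higher in the same library, with a median log2 ratio of 1.75, and their part in this was not tested.

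Sterol handling genes were mixed, and the counts below stand beside 8.48% lower and 7.03% higher of all genes tested. Of 9 measured oxysterol and LXR genes 2 were lower, Abcg1, a cholesterol exporter (12.1 and 7.67 FPKM), and Hsd3b7 (3.38 and 1.83 FPKM), and Ch25h was at 11.6 and 15.0 FPKM. Of 12 measured sterol transport genes 2 were higher, Lipa, lysosomal acid lipase (61.8 and 224 FPKM), and Gramd1a (4.80 and 7.94 FPKM). The 2 lower ones were Osbpl8 (25.5 and 16.4 FPKM) and Tmem97 (8.44 and 4.96 FPKM), and Npc2, a lysosomal cholesterol carrier, was at 1013 and 1053 FPKM. Osbpl11 (8.87 and 5.83 FPKM) was lower by 1.5-fold only by counts, with a ratio of 0.657 (0.573 to 0.753).

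**Figure D5:**
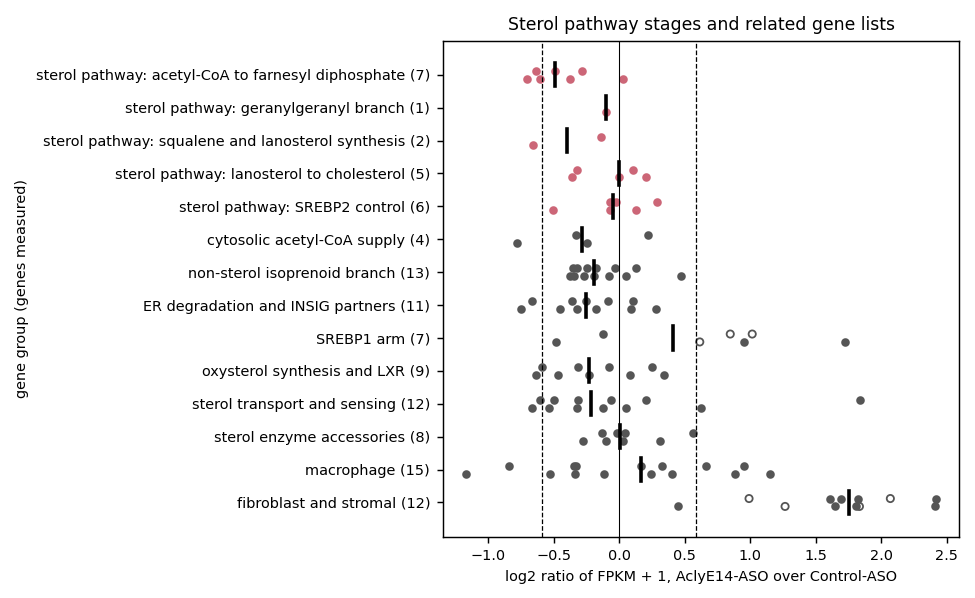
Log2 ratio (AclyE14-ASO against Control-ASO, on FPKM + 1) for each measured gene (points) of the sterol pathway by stage (red), of related lists and of 2 marker lists (grey). Open points are genes below 1 FPKM in the Control-ASO library, black bars are medians over the filled points, and the 1.5-fold limits are dashed. The medians of the stages are -0.49 for acetyl-CoA to farnesyl diphosphate, -0.40 for squalene and lanosterol synthesis, and -0.0041 for lanosterol to cholesterol.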

How the data were processed

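mRNA of 2 macrophage cultures was sequenced, 1 library a group. Raw gene counts and FPKM were deposited in 1 table, per the file headers. The submitters' processing notes list, without a role, mm10 and the tools HISAT2, StringTie 1.3.0 and edgeR. The strand setting of the counting is not stated there. The FPKM values were scaled by the authors to each library's total and to 1 length per gene, as checked on the deposited counts. Symbols were matched by identifier, and positions and overlaps come from GENCODE M21 (GRCm38, also called mm10).

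Genes whose mean reached 1 FPKM were compared by the log2 ratio of FPKM + 1 and called at 1.5-fold. This pseudocount makes the differences of low genes look smaller. Count ratios carry exact Clopper-Pearson 95% intervals, which cover counting error only, and no molecular identifiers are stated for the reads. The TMM alternative used edgeR 4.0.16 (R 4.3.3), and the other steps SciPy 1.17.1 and pandas 2.3.3 under Python 3.11.15. Calculations were tested on simulated counts. All 27 genes are named, and of each other list the most abundant gene and each called gene, some of which are not reported here. The genes and lists were chosen with earlier results of these data known.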

Additional observations from a re-analysis of the deposited data

How the results depend on the processing

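The count of 4 lower genes depended on the scale and the limit. It was 0 with a pseudocount of 5, 0 when centred on the median gene (a shift of 0.13), 2 with TMM (a shift of 0.10), 1 among the 12 genes whose mean reached 5 FPKM, 0 at 2-fold and 9 at the lowest fold limit tried, where 26.7% of all genes were lower. With alternatives chosen after seeing the data it was 0 when centred within 20 bins of gene length, 1 within bins of transcript GC content and 0 within bins of mean FPKM. It stayed at 4, the same genes, with a pseudocount of 0.1, by counts without a pseudocount among the 21 measured genes, and on the FPKM + 1 scale without a filter. By counts over genes with at least 50 counts, a limit set after seeing the data, 6 genes were lower, with Lss and Stard4 added. By the same counts 1 gene (Dhcr7) was higher. The median log2 ratio of -0.14 turned to 0.017 within bins of mean FPKM. Of 240 values of single genes under these alternatives, 13 moved and 0 called genes changed sign. The 27 values without a filter and the 12 at a mean of at least 5 FPKM are the main values, so they could not move. A change of sign was scored only for the 4 called genes. Their log2 ratios, from -0.61 to -0.70, exceed the shifts of 0.13 and 0.10, so neither shift could reverse them. A value moved if it shifted by more than the distance from the middle of its counting interval to its end, in log2. The SREBP motif was in 1 gene exactly and in 10 with 1 mismatch. No library could be left out and no paired analysis was possible because each group held 1 library.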
